A study of Oryza sativa with 24 samples.

Results

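The comparison described here is that of scutella of the rice line 35Spro:OsMIR393b after 7 d on callus-inducing medium (CIM) with those after 5 d on the same medium, with 3 libraries at each time, or 6 of the 24 libraries of the series. The 6 libraries were chosen by their labels alone. The line overexpresses the microRNA gene OsMIR393b under the 35S promoter, which is active in most tissues, and has the japonica background Nipponbare, as does the wild-type. CIM is N6 medium with the synthetic auxin 2,4-D. In the whole series both genotypes were sampled after 2 d on hormone-free N6 medium and after 2, 5 and 7 d on CIM, which gives 8 groups of 3 libraries. The labels call the tissue mature embryos, whereas the methods of the study describe scutella pooled from several seeds, so each library averages over seeds. The study calls its RNA-seq replicates biological. Neither the study nor a label says whether the 3 libraries of a group came from separate cultures. The p-values therefore measure the spread between these libraries, which may be partly technical.

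The scutellum is the single cotyledon of the grass embryo. During germination it secretes alpha-amylase and takes up the sugars freed from the endosperm, and under strong auxin the epidermis of a wild-type scutellum divides and forms an embryo-like structure and then callus. Auxin is sensed by the F-box receptors TIR1 and AFB2, which send Aux/IAA repressors to degradation and so release the auxin response factors (ARFs). The microRNA miR393 cuts the receptor transcripts. The line forms no scutellum-derived callus, so the step from 5 d to 7 d is late culture on auxin without callus formation, and the question is which transcripts still changed in that time.

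The targeted receptors were low in the line at both times. Levels are given as CPM (counts scaled to a common library size), with a TMM factor per library. OsTIR1 (Os05g0150500, chr5:2892746-2898971, IRGSP-1.0) was at 19.1, 22.4 and 25.4 CPM in the 5 d libraries and at 22.7, 29.5 and 28.4 CPM in the 7 d libraries, where the wild-type means were 83.2 and 97.0 CPM. OsAFB2 (Os04g0395600, chr4:19453774-19458208) was at 54.9, 61.7 and 71.5 CPM at 5 d and at 69.1, 75.4 and 77.9 CPM at 7 d, against wild-type means of 121 and 148 CPM. The times overlapped for both receptors, and neither difference passed the test (OsTIR1, log2 fold change 0.27, SE 0.11, edgeR adjusted p = 0.084, and OsAFB2, 0.24, SE 0.10, adjusted p = 0.082).

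The library totals of the 6 libraries lay between 66692530 and 70796624 counts, so depth was nearly equal. The 5 d libraries were spread widely. On the first principal component of all 24 libraries, which held 38.2% of the variance, replicate 1 of the line at 5 d stood at 10.58, whereas replicates 2 and 3 stood at -71.13 and -109.92, and the wild-type libraries at 5 d stood between 166.17 and 198.82. Replicate 1 was thus the 5 d library of the line nearest to wild-type. The 7 d libraries of the line stood at -158.37, -85.99 and -117.75, with replicate 1 farthest from wild-type. The counts of called genes, and values for most of the genes named, are therefore also given without replicate 1 at 5 d.

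**Figure D1:**
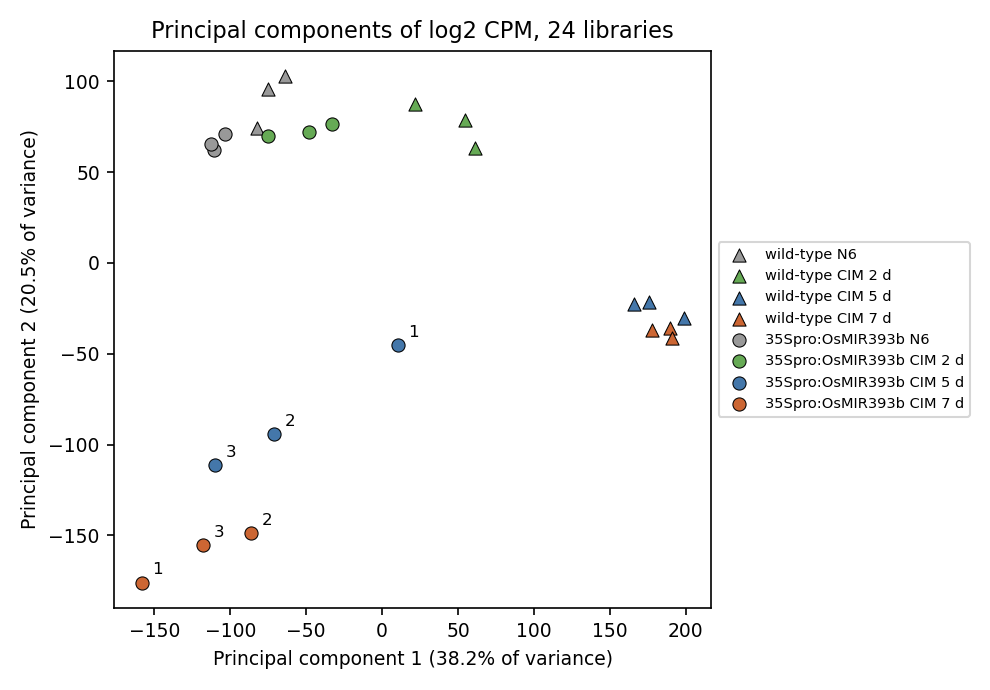
First against second principal component of log2 CPM for all 24 libraries (triangles wild-type, circles 35Spro:OsMIR393b, colours for medium and time, digits for the replicates of the line at 5 d and 7 d). Replicate 1 of the line at 5 d lies at 10.58 on the first component, closer to the wild-type libraries at 5 d than replicates 2 and 3.

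More genes were called lower than higher between 5 d and 7 d. The test was edgeR's quasi-likelihood test in 1 fit of all 24 libraries, and a call required both a p below 0.05 after Benjamini-Hochberg adjustment and a log2 fold change beyond 1 in either direction. Of 29710 genes tested, 1793 fell (6.04%) and 310 rose (1.04%). With no minimum fold, 3317 were lower and 2179 higher. Without replicate 1 at 5 d, 657 of 30276 genes fell (2.17%) and 116 rose (0.383%), and of the genes called with all libraries, 637 (35.5% of the lower) and 86 (27.7% of the higher) were called again. In a fit of the 6 libraries alone, with 4 residual degrees of freedom in place of 16, 74 of 26339 genes fell and 12 rose, and 77 genes, 69 lower and 8 higher, passed in all 3 of these fits.

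Replicate 1 carried many of the calls. Among the 1793 lower genes it was the highest of the 5 d libraries in 1460 (81.4%), and replicate 1 at 7 d was the lowest of its group in 1176 (65.6%). Without replicate 1 at 7 d, 951 genes fell and 143 rose, and without replicate 3 at 5 d, 2427 fell and 484 rose. In 1219 of the lower genes (68.0%) and 295 of the higher (95.2%) the 3 libraries at 7 d did not overlap the 3 at 5 d. Over all genes tested, 14.4% had all 7 d libraries below and 15.2% all above the 5 d libraries. With library totals in place of TMM factors the median log2 fold change over all genes moved from -0.02 to -0.17, and 175 genes rose and 2300 fell. In bulk tissue, fewer cells of a type and less RNA per cell cannot be told apart.

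The genes with the lowest fold changes were described among those called both with and without replicate 1 at 5 d, not overlapping between the times, and with at least 10 CPM in the higher group. They were 273 genes, 216 lower and 57 higher, and the 12 lowest encode a lipid transfer protein, a pair of oleosins, 4 enzymes of wax and fatty acid elongation, a defensin-like protein, a TPD1-like protein, a pectin lyase fold protein, a cupin and a conserved hypothetical protein. None of these 12 was called in the fit of the 6 libraries alone (edgeR adjusted p from 0.077 to 0.12). Non-overlap and the call without replicate 1 were required of the 12 lowest, the 12 highest and the 10 most abundant genes. For those genes neither is a finding. OsLTP1.15 (Os12g0114500, chr12:723297-724220), a member of the lipid transfer proteins, which carry lipids outside the cell, was at 403, 86.3 and 15.5 CPM at 5 d and at 1.70, 2.15 and 5.35 CPM at 7 d. The 5 d libraries themselves differed widely. The log2 fold change was -5.78 (SE 0.91, edgeR adjusted p = 4.8e-04), and -4.06 without replicate 1 (adjusted p = 0.0019). The gene lies in a segment duplicated between chromosomes 11 and 12, and a near-identical copy may share its reads, so its level is uncertain. Of 70 lipid transfer protein genes tested, 14 fell and 1 rose (20.0% lower, against 6.04% of all genes, median -0.73), and 5 fell without replicate 1.

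Genes of wax and very long chain fatty acid synthesis made up 4 of these 12. OsGL1-2 (Os02g0178800, chr2:4355073-4362388), a homolog of the maize wax gene Glossy1, was at 70.1, 18.5 and 10.2 CPM at 5 d and at 0.923, 1.78 and 3.37 CPM at 7 d. It fell by 4.03 on the log2 scale (SE 0.55, adjusted p = 1.4e-04), and by 2.83 without replicate 1 (adjusted p = 1.9e-04). The related OsGL1-3 (Os06g0653000) was at 113, 22.8 and 9.57 CPM against 1.64, 5.13 and 3.46 CPM (log2 fold change -3.82, SE 0.66, adjusted p = 0.001, and -2.24 without replicate 1, adjusted p = 0.0057). Both were near constant in wild-type, with means of 224 and 240 CPM for OsGL1-2 and 261 and 263 CPM for OsGL1-3 at 5 d and 7 d. Os03g0162650 and Os03g0162800, neighbours on chromosome 3 annotated as a fatty acid elongase and a beta-ketoacyl-CoA synthase, fell by 4.81 and 3.96 on the log2 scale (SE 0.81 and 0.71, adjusted p = 7.8e-04 and 0.0012). Without replicate 1 their values were -2.94 and -2.18 (adjusted p = 0.0033 and 0.007). ONI1 (Os03g0181500), a beta-ketoacyl-CoA synthase known from shoot development, was at 112, 35.9 and 30.9 CPM at 5 d and 10.7, 3.32 and 8.52 CPM at 7 d, with no overlap (log2 fold change -2.99, SE 0.48, adjusted p = 6.1e-04, and -2.16 without replicate 1, adjusted p = 0.0037). ONI1 stands outside the 12 and was chosen after its values were seen.

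The other genes of the 12, beside the oleosins, have varied annotations. CAL1 (Os02g0629800, chr2:25190487-25191188), a defensin-like protein that moves cadmium out of the cytosol, was at 85.2, 43.5 and 5.30 CPM at 5 d and at 0, 2.57 and 0.662 CPM at 7 d (log2 fold change -5.35, SE 0.93, adjusted p = 0.001). OsTDL1B (Os10g0207500, chr10:7624066-7625061), similar to TPD1, a small secreted protein that in Arabidopsis is a ligand in anther development, was at 54.2, 13.1 and 2.30 CPM at 5 d and 0.295, 1.04 and 1.40 CPM at 7 d (log2 fold change -4.67, SE 0.89, adjusted p = 0.0019). Replicate 3 was the lowest 5 d library for both genes. Os01g0201600, annotated as a pectin lyase fold protein, was at 42.3, 14.3 and 2.84 CPM at 5 d and 0.277, 0.386 and 0.589 CPM at 7 d (log2 fold change -5.57, SE 0.89, adjusted p = 5.7e-04). Os03g0197300, a cupin family protein, was at 241, 172 and 25.0 CPM against 4.58, 7.90 and 15.7 CPM (log2 fold change -3.96, SE 0.79, adjusted p = 0.0027), and Os07g0440100, a conserved hypothetical protein, fell by 4.04 (SE 0.71, adjusted p = 0.0011). Without replicate 1 the log2 fold changes were -4.48 for CAL1, -3.07 for OsTDL1B, -4.36 for Os01g0201600, -3.39 for Os03g0197300 and -2.21 for Os07g0440100 (adjusted p from 0.0029 to 0.016).

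**Figure D2:**
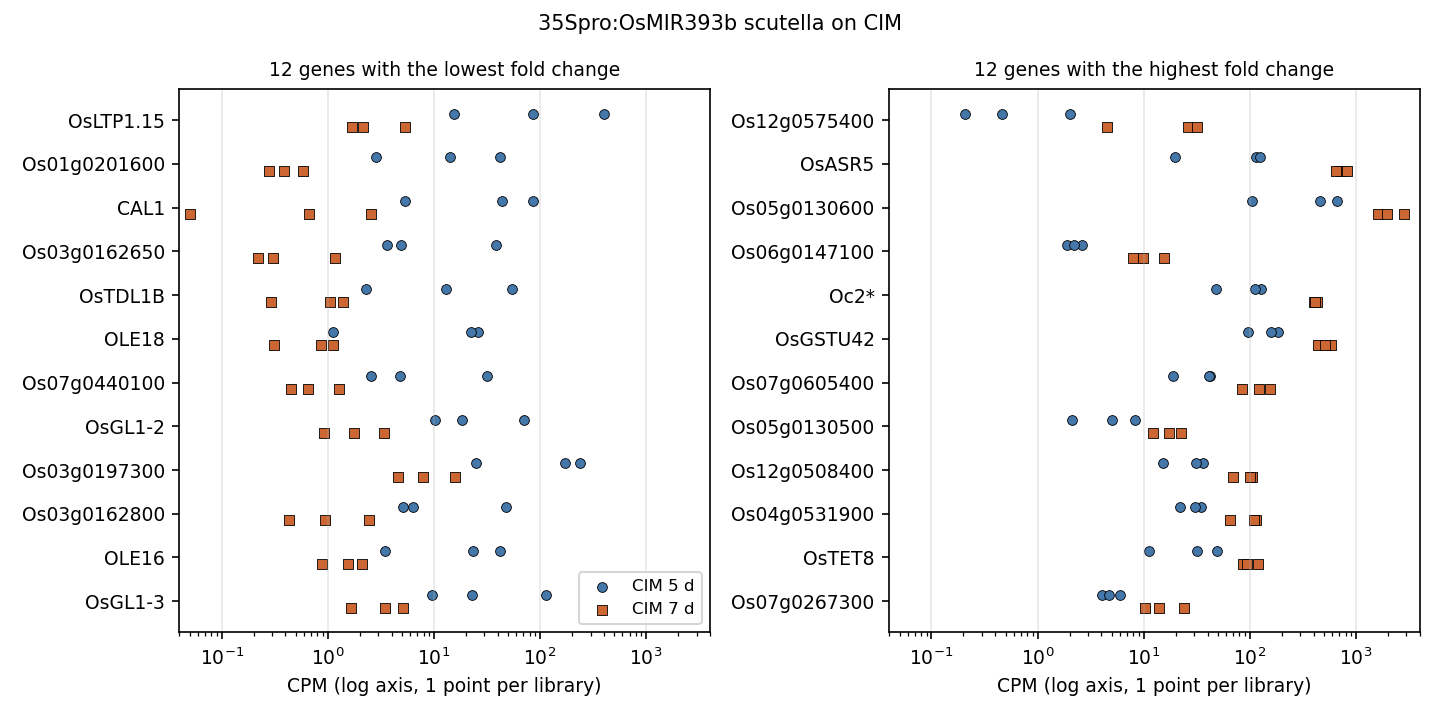
CPM on a log axis in each of the 6 libraries (circles 5 d, squares 7 d) for the 12 genes with the lowest and the 12 with the highest log2 fold change from 5 d to 7 d in 35Spro:OsMIR393b, among genes called with and without replicate 1 at 5 d. The 7 d library of CAL1 at 0 CPM is drawn near the left edge. The lower genes have 5 d libraries that span up to 403 to 15.5 CPM (OsLTP1.15), and OLE18 in replicate 3 at 5 d, 1.13 CPM, nearly touches its highest 7 d library, 1.11 CPM.

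Oleosins, which coat the oil bodies of seeds and embryos, were among the 12 lowest genes. OLE18 (Os03g0699000, chr3:28021888-28022831) was at 26.1, 22.4 and 1.13 CPM at 5 d and 0.314, 1.11 and 0.864 CPM at 7 d, and OLE16 (Os04g0546500, chr4:27362091-27362951) at 23.2, 42.4 and 3.44 CPM against 0.886, 2.1 and 1.54 CPM. Replicate 3 at 5 d was already low for both. The log2 fold changes were -4.43 (SE 0.82, adjusted p = 0.0016) and -3.93 (SE 0.73, adjusted p = 0.0016), and -3.94 and -3.92 without replicate 1 (adjusted p = 0.0082 and 0.0055). In wild-type the means of OLE18 were 121 CPM at 5 d and 139 CPM at 7 d. Of 47 tested genes for late embryogenesis abundant (LEA) proteins, dehydrins and oil body proteins, 17 fell (36.2%, against 6.04% of all genes) and none rose, with a median log2 fold change of -0.89 against -0.02 over all genes. Without replicate 1 at 5 d, 6 fell, and in the fit of the 6 libraries alone none of 40 did. A pair of near-identical LEA-18 genes, Os09g0482300 and Os09g0482550, which may share reads, fell by 3.20 and 3.21 (SE 0.68 for each, adjusted p = 0.0041 and 0.004), and by 2.67 and 2.66 without replicate 1 (adjusted p = 0.025 for each). The summed CPM of the 53 members of the list, with 6940, 13801 and 13709 CPM at 5 d and 16843, 16237 and 13670 CPM at 7 d, overlapped between the times. Most of this sum was OsLEA24 (Os03g0655400), similar to LIP5, with 5164, 11870 and 12332 CPM at 5 d and 15306, 14690 and 12120 CPM at 7 d (log2 fold change 0.52, SE 0.38, adjusted p = 0.36).

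All 4 embryo regulators tested fell with all libraries, against 6.04% of all genes. Without replicate 1 at 5 d, 2 of the 4 fell, against 2.17% of all genes. None of 3 tested was called in the fit of the 6 libraries alone. OsVP1 (Os01g0911700, chr1:39723171-39726984), the rice homolog of the abscisic acid response factor VIVIPAROUS1 of maize seeds, was at 36.5, 20.8 and 10 CPM at 5 d and at 3.41, 6.68 and 6.86 CPM at 7 d. The times did not overlap, and the log2 fold change was -1.99 (SE 0.33, adjusted p = 7.7e-04), or -1.45 without replicate 1 (adjusted p = 0.005). OsLFL1 (Os01g0713600, chr1:29637792-29642862), a B3 factor of the LEAFY COTYLEDON2 and FUSCA3 type, was at 3.58, 1.45 and 0.461 CPM at 5 d and at 0, 0 and 0.202 CPM at 7 d (adjusted p = 0.0022, and 0.015 without replicate 1). OsLEC1 (Os02g0725700, chr2:30164300-30165377), the LEAFY COTYLEDON1 subunit of the NF-Y complex, was at 2.85, 0.479 and 0.0709 CPM against 0.0554, 0 and 0.0736 CPM, and the related HAP3K (Os02g0725900) was at 1.34, 0.726 and 0.922 CPM against 0.129, 0.386 and 0.257 CPM. OsLEC1 overlapped between the times, with replicate 1 alone clearly above the 7 d libraries, and HAP3K did not. All 7 d libraries of OsLFL1 and OsLEC1 lay under the floor of 12 counts per library, or about 3 read fragments (0.201 to 0.221 CPM), so the sizes of these falls were not measurable at this depth. The calls of OsLEC1 and HAP3K were lost without replicate 1 at 5 d (adjusted p = 0.024 and 0.18 for OsLEC1, 0.02 and 0.11 for HAP3K, with and without it). In wild-type the summed level of the 4 genes was 137 CPM at 5 d and 185 CPM at 7 d, against 26.4 and 6.02 CPM in the line.

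The WOX homeobox genes, which include regulators of stem cell niches and of early embryo cells, gave 4 lower of 11 tested and none higher. That was 36.4%, against 6.04% of all genes, with 2 lower of 13 without replicate 1. None of 6 was called in the fit of the 6 libraries alone. OsWOX6 (Os03g0325600, chr3:11845236-11849001) was at 50.8, 32.4 and 14.3 CPM at 5 d and 7.01, 8.39 and 9.86 CPM at 7 d, with no overlap (log2 fold change -1.95, SE 0.34, adjusted p = 9.9e-04, and 0.0082 without replicate 1). DWT1 (Os01g0667400), a WOX gene needed for uniform tiller growth, was at 8.60, 0.512 and 0.869 CPM against 0.221, 0.336 and 0.294 CPM, and its fold change of -3.55 (SE 0.82, adjusted p = 0.0069) became -1.27 without replicate 1 (adjusted p = 0.19). OsWOX2 (Os01g0840300) was at 2.11, 0.231 and 0.0532 CPM at 5 d and at 0, 0 and 0.0184 CPM at 7 d, all under the same floor. It is annotated over 195 bases only, and the size of its fall was not measurable at this depth (adjusted p = 0.0039, and 0.046 without replicate 1). Of 10 PLETHORA genes, AP2 factors of root and embryo stem cells, 3 fell with all libraries (30.0%, against 6.04% of all genes) and none without replicate 1. OsPLT6 (Os11g0295900), for example, was at 29.9, 13.2 and 5.50 CPM against 1.97, 4.55 and 5.92 CPM, which overlap (adjusted p = 0.0063 and 0.076 with and without replicate 1).

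**Figure D3:**
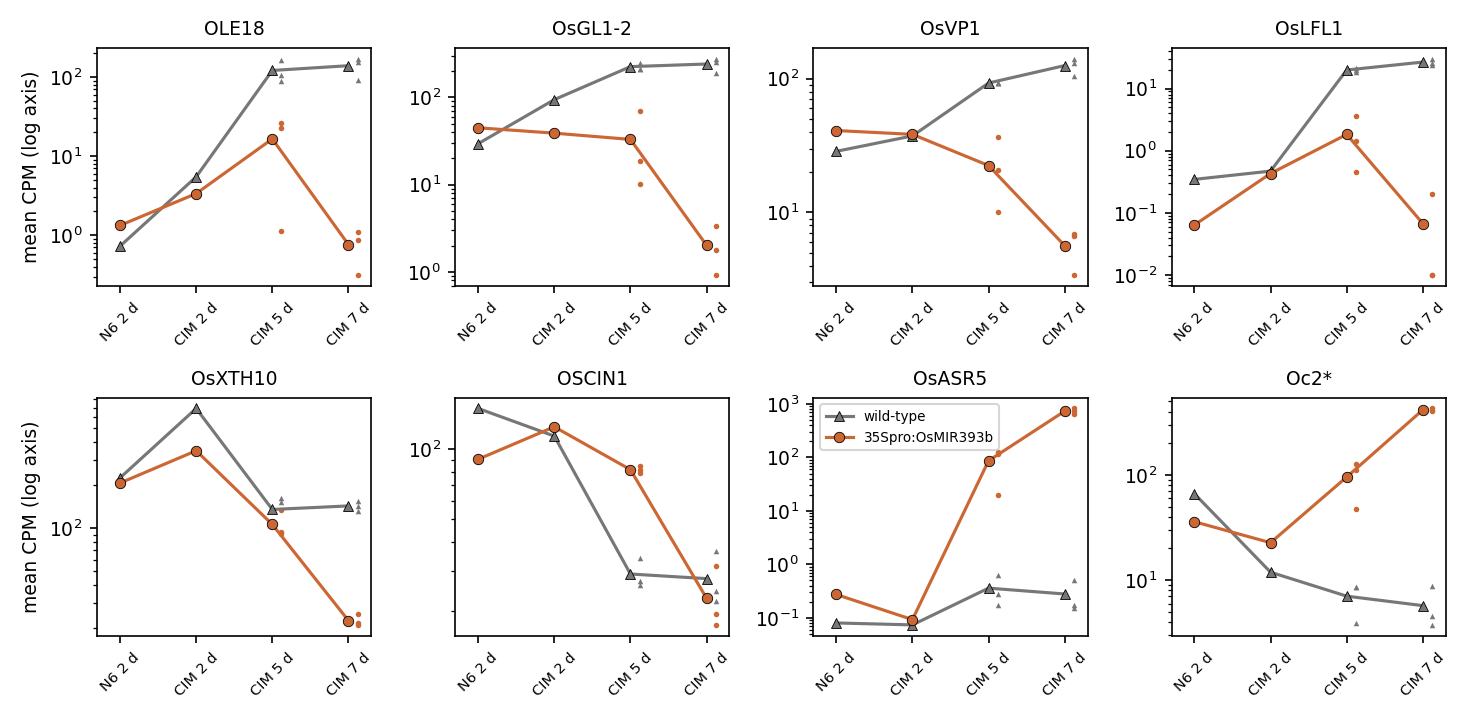
Mean CPM (log axis, n = 3) of 8 genes after 2 d on N6 and after 2, 5 and 7 d on CIM in wild-type (grey triangles) and 35Spro:OsMIR393b (orange circles), with the single libraries at 5 d and 7 d as small symbols and libraries at 0 on the lower edge. The mean of OLE18 in the line was 16.5 CPM at 5 d and 0.762 CPM at 7 d, and the wild-type mean 121 CPM and 139 CPM. The wild-type means of OsASR5 and Oc2* at 7 d were 0.279 and 5.73 CPM, against 735 and 415 CPM in the line.

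No gene of the auxin response families described here was called higher. Of 29 Aux/IAA repressor genes, 3 fell (10.3%, against 6.04% of all genes, median -0.41), and 1 fell without replicate 1. That gene was OsIAA12 (Os03g0633800), at 54.7, 26.8 and 21.4 CPM at 5 d and 6.13, 14.7 and 12.7 CPM at 7 d (log2 fold change -1.62, SE 0.32, adjusted p = 0.0024, and -1.11 without replicate 1, adjusted p = 0.023). OsIAA1 (Os01g0178500) went up by less than the minimum fold, from 90.0, 88.5 and 93.7 CPM to 116, 109 and 113 CPM (log2 fold change 0.31, SE 0.08, adjusted p = 0.011). Of 26 ARF genes 4 fell (15.4%, median -0.55) and 1 without replicate 1, OsARF9 (Os04g0442000), at 55.5, 33.9 and 35.8 CPM against 10.8, 24.6 and 15.2 CPM (log2 fold change -1.31, SE 0.22, adjusted p = 8.7e-04, and -1.05 without replicate 1, adjusted p = 0.0072). OsARF23 (Os11g0523800) was at 254, 203 and 165 CPM at 5 d and at 74.8, 112 and 99.6 CPM at 7 d, with no overlap (log2 fold change -1.12, SE 0.16, adjusted p = 2.8e-04), and at -0.95 without replicate 1 it lay just under the minimum fold. Of 7 GH3 genes, whose enzymes conjugate auxin to amino acids, 3 fell (42.9%) and none did without replicate 1. GH3-8 (Os07g0592600) was at 764, 621 and 353 CPM against 335, 331 and 340 CPM (adjusted p = 0.058).

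SAUR genes, small auxin-induced genes of cell growth, gave 8 lower of 40 (20.0%, against 6.04% of all genes), of which 2 were called without replicate 1. Their median of -1.02 became -0.44 with the genes at 0 set to their bound. OsSAUR46 (Os09g0546200), in a tandem array on chromosome 9, was at 3.65, 1.53 and 1.36 CPM at 5 d and 0.609, 0.436 and 0.607 CPM at 7 d (log2 fold change -1.99, SE 0.43, adjusted p = 0.0047, and -1.40 without replicate 1, adjusted p = 0.047). OsCRL1 (Os03g0149000), the LBD factor needed for crown roots, was at 3.95, 3.35 and 3.07 CPM against 1.22, 1.48 and 1.56 CPM (log2 fold change -1.28, SE 0.23, adjusted p = 0.0013, and 0.0091 without replicate 1). It also fell in wild-type (-1.51, adjusted p = 0.0028), and the difference between the genotypes was 0.23 (SE 0.32, adjusted p = 0.73). The auxin efflux carriers OsPIN1c (Os11g0137000) and OsPIN1d (Os12g0133800), near-identical copies on chromosomes 11 and 12 whose reads may be split, fell by 2.67 and 3.49 (SE 0.76 and 0.93, adjusted p = 0.022 and 0.015), and both calls were lost without replicate 1 (adjusted p = 0.12 and 0.078). Of the 30 genes that the study names, 13 fell and none rose, and 4 were called lower without replicate 1: OsVP1, OsLFL1, OsWOX2 and OsCRL1. The remaining 5 d libraries of OsWOX2, at 0.231 and 0.0532 CPM, lay close to or under the floor of 12 counts. A fall of OsWOX2 was therefore not measurable without replicate 1. In the fit of the 6 libraries alone, none of the 27 study genes tested was called. The list of study genes was picked by the study on these samples, so it is not independent evidence of a direction.

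The calls among genes of DNA replication rested largely on replicate 1. The MCM helicase subunits and origin licensing factors gave 8 lower of 19 (42.1%, median -1.51) with all libraries and none of 19 without it. Their summed CPM was 362, 187 and 142 at 5 d and 83.7, 190 and 107 at 7 d, so replicate 1 at 5 d was high, replicate 1 at 7 d was low, and the other libraries overlapped. OsMCM4 (Os01g0544450) had 39.0, 15.8 and 9.50 CPM against 1.72, 13.2 and 3.81 CPM (adjusted p = 0.026, and 0.25 without replicate 1). In wild-type the sum was 860 ± 64.2 CPM (SD, n = 3) at 5 d and 760 ± 11.1 CPM at 7 d. Of 35 genes for replicative polymerases and their factors, 10 fell (28.6%) and 1 without replicate 1, which was RPA2C (Os06g0693300), a replication protein A subunit, at 5.75, 5.28 and 3.97 CPM against 0.203, 1.34 and 1.20 CPM (log2 fold change -2.45, SE 0.38, adjusted p = 4.5e-04, and -2.33 without replicate 1, adjusted p = 0.0022). Cyclins gave 5 lower of 28 (17.9%) and 1 without replicate 1, kinesins 10 of 42 (23.8%) and 2, and core histones 4 of 48 (8.33%) and none, against 6.04% of all genes and 2.17% without it. CycD5 (Os12g0588800), a D-type cyclin, was the cyclin that remained, at 19.6, 9.19 and 7.04 CPM against 1.61, 4.97 and 3.07 CPM (log2 fold change -1.89, SE 0.36, adjusted p = 0.002, and -1.33 without replicate 1, adjusted p = 0.018).

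Many cell wall genes fell. Class III peroxidases, which act on phenolics in the wall, gave 34 lower and 1 higher of 97 tested (35.1% lower, against 6.04% of all genes, median -1.12). Without replicate 1, 20 of 102 fell, and 6 fell in the fit of the 6 libraries. The peroxidase gene prx89 (Os06g0681600, chr6:28414034-28425443) was at 82.4, 82.3 and 99.0 CPM at 5 d and at 13.6, 17.9 and 18.6 CPM at 7 d. The groups were far apart, with a log2 fold change of -2.39 (SE 0.31, adjusted p = 1.0e-04), and the call held in the 6 libraries alone (adjusted p = 0.035). prx109 (Os07g0676900) was at 56.4, 35.6 and 41.8 CPM against 9.56, 14.2 and 9.77 CPM (log2 fold change -2.0, SE 0.26), and prx27 (Os02g0236600) at 16.3, 20.7 and 14.0 CPM against 4.10, 3.24 and 4.62 CPM (-2.09, SE 0.26). Both were called in all 3 fits (adjusted p = 0.046 and 0.037 in the 6 libraries), and without replicate 1 the log2 fold changes were -2.44 for prx89, -1.79 for prx109 and -2.12 for prx27. The summed CPM of the list overlapped between the times, with 4122, 4722 and 5334 CPM at 5 d and 4198, 3373 and 4683 CPM at 7 d.

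Expansins, which loosen walls in growing cells, gave 12 lower and none higher of 40 (30.0%, against 6.04% of all genes, median -1.08), and 7 lower and 1 higher without replicate 1. The tandem beta-expansins of chromosome 10, whose similar copies may share reads, were among the most abundant transcripts that fell. OsEXPB6 (Os10g0555600) was at 433, 370 and 321 CPM at 5 d and at 151, 101 and 175 CPM at 7 d (log2 fold change -1.40, SE 0.18, adjusted p = 1.0e-04). OsEXPB4 (Os10g0556100) was at 686, 377 and 325 CPM against 119, 104 and 212 CPM (-1.67, SE 0.24, adjusted p = 2.8e-04), and OsEXPB3 (Os10g0555900) at 637, 653 and 656 CPM against 320, 174 and 356 CPM (-1.20, SE 0.25, adjusted p = 0.0033). None of the 3 overlapped between the times, and without replicate 1 the values were -1.28, -1.28 and -1.21 (adjusted p = 7.8e-04, 0.0013 and 0.013). Non-overlap and the call without replicate 1 were required of genes chosen as most abundant, so for such genes neither is a finding. OsXTH10 (Os06g0697000, chr6:29156457-29157883), a xyloglucan endotransglucosylase, which cuts and rejoins the tethers between cellulose fibrils, was at 133, 93.8 and 92.0 CPM at 5 d and at 20.9, 21.4 and 25.0 CPM at 7 d. It fell by 2.24 on the log2 scale (SE 0.29, adjusted p = 8.3e-05), by 2.05 without replicate 1, and was called in all 3 fits.

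Further wall enzymes fell at single genes. OsBGLU1 (Os03g0749300), an exoglucanase, went from 747, 623 and 695 CPM to 335, 268 and 357 CPM (log2 fold change -1.10, SE 0.13, adjusted p = 4.0e-05). Os01g0130400, similar to an alpha-xylosidase of xyloglucan, went from 585, 385 and 275 CPM to 97.5, 97.2 and 148 CPM (-1.86, SE 0.21, adjusted p = 2.8e-05), and Os04g0418800, a hydroxyproline-rich glycoprotein, from 3339, 1474 and 1415 CPM to 507, 693 and 832 CPM (-1.62, SE 0.25, adjusted p = 4.3e-04). None of these overlapped, and without replicate 1 the values were -1.04, -1.53 and -1.09 (adjusted p = 2.6e-04, 8.0e-05 and 8.0e-04). For genes chosen as most abundant, here too, both were required. Pectin enzymes gave 20 lower and none higher of 87 (23.0%, against 6.04% of all genes). Without replicate 1 they gave 9 lower of 92, against 2.17% of all genes. OsPME25 (Os08g0450100), a pectin methylesterase, was at 2.72, 0.726 and 0.993 CPM at 5 d and at 0 in every 7 d library, at least 6.90-fold lower with the 7 d libraries set to the floor of 12 counts each, and at least 4.01-fold without replicate 1 at 5 d. Cellulose synthases gave 5 lower of 37 (13.5%), and 2 of 39 without replicate 1. OsCesA1 (Os05g0176100), a subunit of the primary wall complex, fell by less than the minimum fold, from 434, 435 and 421 CPM to 272, 238 and 298 CPM (-0.68, SE 0.10, adjusted p = 3.2e-04). OSCIN1 (Os02g0534400, chr2:19682544-19687163), a cell wall invertase, which splits sucrose outside the cell, was at 84.7, 79.2 and 81.2 CPM at 5 d and at 19.5, 17.5 and 31.4 CPM at 7 d (-1.84, SE 0.23, adjusted p = 7.6e-05, and -1.81 without replicate 1) and passed in all 3 fits.

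A few of the 77 genes called in all 3 fits lie outside these groups and are named after their values were seen. Os06g0676700, similar to a high pI alpha-glucosidase, which releases glucose from starch breakdown products, was at 342, 205 and 230 CPM at 5 d and at 60.2, 60.7 and 65.2 CPM at 7 d (log2 fold change -2.06, SE 0.23, adjusted p = 2.8e-05). OsABCG12 (Os05g0222200), an ABC transporter, was at 19.1, 11.5 and 8.49 CPM against 2.51, 2.1 and 2.15 CPM (-2.53, SE 0.24, adjusted p = 8.2e-06). OsGELP85 (Os06g0531900), a GDSL lipase, was at 123, 102 and 79.8 CPM against 33.5, 33.1 and 37.8 CPM (-1.54, SE 0.16, adjusted p = 1.2e-05). The 7 d libraries agreed closely in each of the 3 genes.

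Markers of other tissues were checked, since the samples may hold more than scutellum. Photosynthesis genes, markers of green shoot, gave 12 lower of 47 and none higher (25.5%, against 6.04% of all genes, median -1.55), and 5 without replicate 1. LHCB (Os03g0592500), a chlorophyll a/b-binding protein, was at 11.9, 1.3 and 12.2 CPM at 5 d and 0.683, 0.369 and 0.386 CPM at 7 d (log2 fold change -4.14, SE 0.73, adjusted p = 0.0011, and -3.81 without replicate 1, adjusted p = 0.0049). Here replicates 1 and 3 were high and replicate 2 was low. The summed level of the 62 members was 292, 167 and 349 CPM at 5 d and 193, 145 and 147 CPM at 7 d, which overlap, and 38.2 to 41.8 CPM in wild-type at 5 d. The root markers of the RCc family fell from 134, 116 and 120 CPM in sum to 41.8, 44.1 and 45.3 CPM, with 2 of 6 members at 0 in all 5 d libraries and 1 in all 7 d libraries. Of 4 RCc genes tested only RCc2 (Os10g0551800) was called, at 69.7, 50.3 and 59.0 CPM against 17.0, 5.30 and 18.7 CPM (-2.13, SE 0.42, adjusted p = 0.0024, and -2.0 without replicate 1, adjusted p = 0.013), and RCc3 (Os02g0662000) was at 64.0, 65.9 and 61.3 CPM against 24.8, 38.6 and 26.6 CPM (adjusted p = 0.15). Endosperm genes were low at both times, at 250, 269 and 338 CPM for 47 members and then 288, 242 and 283 CPM, with no gene called. The part that a changed share of shoot or root tissue has in the results above was not tested.

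The summed scutellum markers were high at both times, and no change in them passed the test. The 14 members, alpha-amylases and enzymes of the glyoxylate cycle among them, summed to 27578, 35208 and 23456 CPM at 5 d and 25057, 32344 and 32818 CPM at 7 d, and none was called. AMY1A (Os02g0765600), the main alpha-amylase, made up most of this, at 20885, 26709 and 17808 CPM and then 20074, 26399 and 27600 CPM (log2 fold change 0.18, SE 0.48, adjusted p = 0.85), with wild-type means of 712 and 446 CPM. Alpha-amylase transcripts were thus abundant in all 6 libraries. The alpha-amylases held 28497 of the mean 28748 CPM at 5 d and 29770 of 30073 CPM at 7 d, so the sum says little about the other markers. No gene was called among 184 cytosolic ribosomal protein genes (median -0.23), 32 autophagy genes (median 0.20) or 12 genes of fatty acid breakdown and the glyoxylate cycle (median 0.10).

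**Figure D4:**
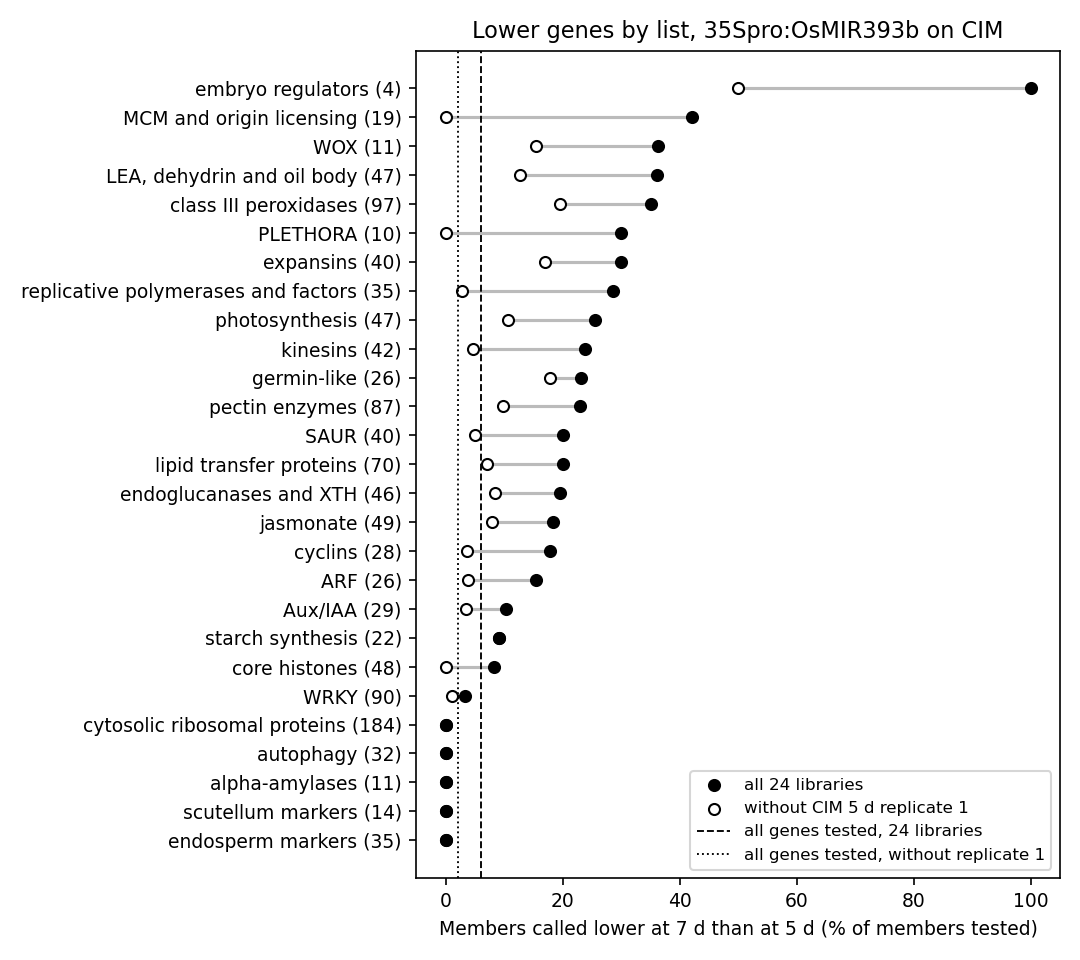
Share of tested members called lower at 7 d than at 5 d in 27 gene lists, with the number of members in brackets, for all 24 libraries (filled) and without replicate 1 of the line at 5 d (open). The dashed line marks all genes tested with all libraries, 6.04%, and the dotted line all genes without that library, 2.17%. The share of MCM and origin licensing genes drops from 42.1% to 0, whereas class III peroxidases stay above both lines.

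The genes that rose were fewer, and in 233 of 310 (75.2%) replicate 1 was the lowest of the 5 d libraries. OsASR5 (Os11g0167800, chr11:3278451-3279419), an ASR protein of the abscisic acid, stress and ripening family, had 19.8, 115 and 126 CPM at 5 d and 727, 655 and 825 CPM at 7 d. The groups were far apart, with a log2 fold change of 3.08 (SE 0.73, adjusted p = 0.0076, and 0.026 without replicate 1). It was below 1 CPM on average in the line after 2 d on either medium and in every wild-type group. Oc2* (Os05g0494200, chr5:24280518-24281730), a cystatin, which inhibits cysteine proteinases, was at 47.8, 127 and 112 CPM against 407, 428 and 411 CPM (2.12, SE 0.35, adjusted p = 7.7e-04, and 1.80 without replicate 1). OsGSTU42 (Os01g0950300, chr1:41854018-41854878), a glutathione S-transferase of the tau class, was at 95.3, 183 and 157 CPM against 581, 438 and 513 CPM (1.82, SE 0.21, adjusted p = 3.7e-05, and 1.59 without replicate 1). Both rose without overlap, as their choice required. Their wild-type means at 5 d and 7 d were 7.05 and 5.73 CPM for Oc2* and 37.0 and 28.6 CPM for OsGSTU42.

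Several of the genes that rose most carry no known function. Os05g0130600 (chr5:1796039-1796862), a conserved hypothetical protein, had 105, 461 and 662 CPM at 5 d and 2863, 1617 and 1982 CPM at 7 d (log2 fold change 2.40, SE 0.54, adjusted p = 0.0056). Its neighbour Os05g0130500 (chr5:1793765-1794879), on the other strand, had 2.11, 4.98 and 8.28 CPM against 22.3, 12.3 and 17.2 CPM (1.75, SE 0.41, adjusted p = 0.007). Strand is not stated for the counting, so reads of close neighbours may be mixed, although the annotated genes do not overlap. Os12g0575400 had 0.207, 0.462 and 2.04 CPM at 5 d and 4.47, 26.2 and 31.5 CPM at 7 d (4.53, SE 1.05, adjusted p = 0.007). Without replicate 1 the log2 fold changes were 1.94 for Os05g0130600, 1.38 for Os05g0130500 and 4.05 for Os12g0575400 (adjusted p = 0.021, 0.036 and 0.043). Replicate 1 was the lowest 5 d library for all 3 genes, and for Os12g0575400 also the lowest at 7 d. OsTET8 (Os05g0126100), a tetraspanin, Os04g0531900, a short-chain dehydrogenase, Os12g0508400 and Os07g0267300, with no known function, and Os07g0605400, similar to the maize egg apparatus peptide EA1, rose by 1.71 to 1.82 on the log2 scale, and by 1.31 to 1.59 without replicate 1 (adjusted p from 0.0023 to 0.035). All rose without overlap, as their choice required. Os06g0147100 had 2.62, 1.90 and 2.22 CPM against 15.7, 9.76 and 7.93 CPM (2.31, SE 0.45, adjusted p = 0.0023, and 2.43 without replicate 1) and passed in all 3 fits.

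EFA27 (Os04g0511200), annotated as an EF-hand protein of abscisic acid response, and its relative Os02g0734600 were among the 8 genes higher in all 3 fits, and were picked after that result. EFA27 was at 25.0, 37.8 and 39.4 CPM at 5 d and at 95.3, 87.3 and 97.4 CPM at 7 d (log2 fold change 1.45, SE 0.27, adjusted p = 0.0016). Os02g0734600 was at 11.5, 15.6 and 11.7 CPM against 41.2, 33.7 and 42.0 CPM (1.59, SE 0.26, adjusted p = 6.9e-04). Of 24 abscisic acid genes none rose and 2 fell (8.33%), and of 35 cytokinin genes 2 rose (5.71%) and 3 fell (8.57%), against 1.04% higher and 6.04% lower over all genes. Without replicate 1 the counts were 0 and 1, and 1 and 2. OsCKX11 (Os08g0460600), a cytokinin oxidase, rose from 20.9, 16.0 and 23.8 CPM to 43.5, 33.8 and 47.7 CPM (1.04, SE 0.19, adjusted p = 0.0017), whereas OsCKX3 (Os10g0483500) fell from 23.9, 21.9 and 17.5 CPM to 3.95, 10.5 and 7.41 CPM (-1.53, SE 0.28, adjusted p = 0.0014). Without replicate 1 their values were 1.07 and -1.44.

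Starch synthesis held genes of both directions, with 2 higher and 2 lower of 22 tested (9.09% in each direction, against 1.04% higher and 6.04% lower over all genes), and none higher and 2 lower without replicate 1. AGPL2 (Os01g0633100), a large subunit of ADP-glucose pyrophosphorylase, the first step of starch synthesis, was at 58.6, 215 and 240 CPM at 5 d and at 571, 381 and 487 CPM at 7 d (log2 fold change 1.49, SE 0.40, adjusted p = 0.016), and the call was lost without replicate 1 (adjusted p = 0.063). OsBEIIa (Os04g0409200), a starch branching enzyme, was at 65.0, 123 and 134 CPM against 53.5, 37.9 and 59.4 CPM (-1.09, SE 0.25, adjusted p = 0.0066), and OsSSIIb (Os02g0744700), a starch synthase, at 7.95, 12.5 and 14.7 CPM against 4.67, 5.75 and 4.52 CPM (-1.23, SE 0.26, adjusted p = 0.0042). These last calls held without replicate 1 (adjusted p = 0.0018 and 0.003).

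None of the 10 transcripts with the highest mean CPM in the line at 7 d was called. Metallothioneins, small cysteine-rich metal-binding proteins, had mean summed levels of 79568 CPM at 5 d and 129190 CPM at 7 d. With TMM factors the CPM of a library do not add up to a fixed total, so these sums are not shares. The single libraries had 46951, 92491 and 99264 CPM and then 138387, 120018 and 129164 CPM, without overlap and with replicate 1 lowest at 5 d. In wild-type the mean sums were 5656 and 4344 CPM. OsMT3a (Os01g0200700), a type 3 metallothionein, was at 13436, 26103 and 27674 CPM against 43020, 37793 and 40698 CPM, and its log2 fold change of 0.85 (SE 0.33) had an adjusted p of 0.074. Of 14 metallothionein genes tested none was called higher and 2 were called lower (14.3%, against 6.04% of all genes), with none called without replicate 1.

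The same interval in wild-type, which formed callus, gave 156 higher and 82 lower genes of 29710. These libraries are separate from those of the line. Of the 1793 genes that fell in the line, 21 fell in wild-type too (1.17%, against 0.276% of all genes), and 8 rose there. Of the 310 that rose in the line, 15 rose in wild-type (4.84%, against 0.525% of all genes). The change in the line minus the change in wild-type was tested in the same fit, and was more negative for 992 genes (3.34%) and more positive for 265 (0.892%). With library totals 1429 were more negative and 152 more positive, so the share of negative differences moved from 78.9% to 90.4%, as the median over all genes moved from -0.07 to -0.26. Without replicate 1 of the line at 5 d there were 592 and 119, and without replicate 1 of wild-type at 7 d 658 and 162. The count of more positive differences was 128 without replicate 3 of wild-type at 5 d. Leaving out replicate 3 of the line at 5 d gave 1624 and 501, and without replicate 1 of the line at 7 d 132 were more positive. Without replicate 2 of the line at 7 d 1687 were more negative.

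Among the 216 lower genes called both ways with at least 10 CPM, 143 had a called difference, and 20 of the 57 higher. Over all genes tested the shares were 3.34% more negative and 0.892% more positive. The 216 and 57 genes were chosen for a large change in the line, which is part of the difference, so a higher share was built in. The difference was -5.47 for OsLTP1.15 (SE 1.11, adjusted p = 0.0061), -4.63 for OLE18 (SE 1.04, adjusted p = 0.01), -4.12 for OsGL1-2 (SE 0.70, adjusted p = 0.0017) and -2.42 for OsVP1 (SE 0.45, adjusted p = 0.0035). OsXTH10 differed by -2.32 (SE 0.39, adjusted p = 0.0016) and OSCIN1 by -1.78 (SE 0.32, adjusted p = 0.0027). On the other side OsGSTU42 differed by 2.19 (SE 0.29, adjusted p = 2.8e-04) and Oc2* by 2.42 (SE 0.49, adjusted p = 0.0063), whereas the difference for OsASR5 was 3.43 with an SE of 1.20 and did not pass (adjusted p = 0.081). Os06g0147100 rose in both genotypes, by 2.31 in the line and 2.13 in wild-type (adjusted p = 0.014), with a difference of 0.18 (SE 0.61, adjusted p = 0.92). Without replicate 1 of the line at 5 d, 36 of the 52 called differences of named genes were still called. Those of OsLTP1.15 (-3.75, SE 0.87, adjusted p = 0.019), OLE18 (-4.14, SE 1.05, adjusted p = 0.028), OsGL1-2 (-2.92), OsVP1 (-1.88), OsXTH10 (-2.13), OSCIN1 (-1.75), OsGSTU42 (1.96) and Oc2* (2.1) were among them.

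**Figure D5:**
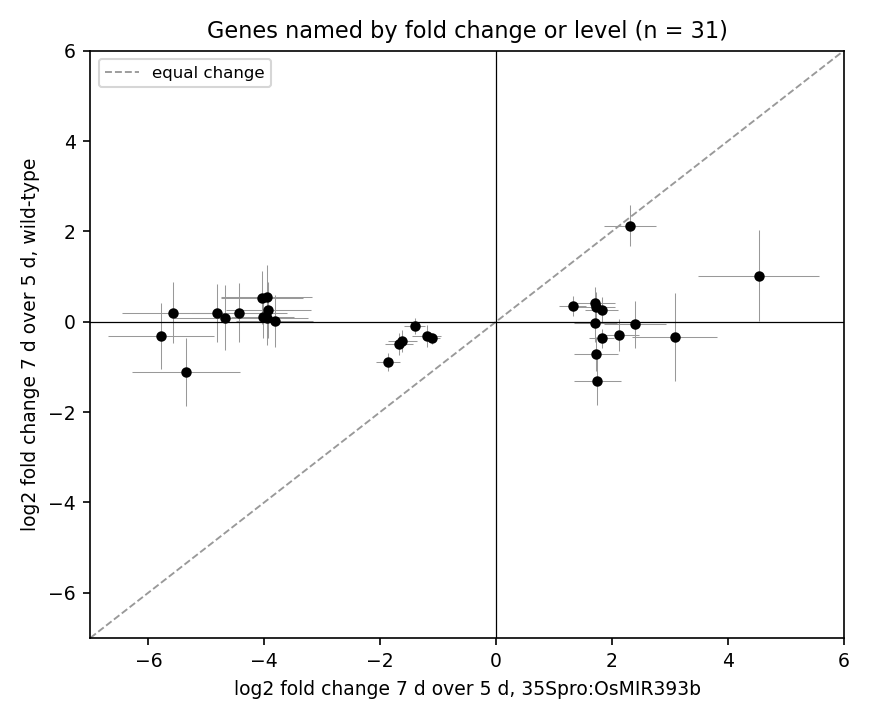
log2 fold change from 5 d to 7 d in 35Spro:OsMIR393b (horizontal) and wild-type (vertical) for 31 genes named for their fold change or level in the line, with bars of 1 SE and a dashed line of equal change. In wild-type 27 of the 31 lie within 1 of 0 on the log2 scale, as do 87.5% of all genes tested, and Os06g0147100 lies near the line of equal change.

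The called differences of largest size were taken among genes with at least 10 CPM in the highest group mean. They included genes at 0 in the line at 7 d, Os0053 and RLCK204, and genes with counts there, such as OsEnS-51 and SWEET13. Os0053 (Os02g0814200), similar to the wax gene CER1, was at 20.8, 4.41 and 0.142 CPM at 5 d and at 0 in every 7 d library, at least 39.3-fold lower at the floor of 12 counts per library and at least 10.6-fold without replicate 1 at 5 d, with wild-type means of 15.3 and 18.9 CPM. RLCK204 (Os06g0203800), a receptor-like kinase, was at 1.98, 0 and 0.301 CPM and then at 0 in every library, with wild-type means of 11.6 and 19.2 CPM, and its fall was lost without replicate 1 (adjusted p = 0.0058 and 0.055 with and without it). Replicate 3 of Os0053 at 5 d was itself under its floor of 0.213 CPM. In both genes replicate 1 at 5 d was far above the other libraries of the line.

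In the positive direction SWEET13 (Os12g0476200), a sucrose exporter, was at 3.89, 11.5 and 12.6 CPM at 5 d and 18.3, 22.4 and 21.5 CPM at 7 d in the line, with wild-type means of 1.52 and 0.0463 CPM (difference 6.15, SE 1.64, adjusted p = 0.025, and 0.06 without replicate 1 of the line at 5 d). Its change within the line did not pass (1.15, adjusted p = 0.43), so the called difference came with a lower level in wild-type. OsCYCP4 (Os04g0544200), a P-type cyclin, was at 5.01, 8.15 and 14.0 CPM against 36.7, 18.4 and 23.1 CPM (difference 3.01, SE 0.87, adjusted p = 0.038, and 0.088 without replicate 1), and its change within the line did not pass either (1.53, adjusted p = 0.069). A pair of seed proteins differed in the negative direction. OsEnS-51 (Os03g0663800), a globulin 1 storage protein, was at 49.7, 15.3 and 1.99 CPM against 1.48, 0.906 and 4.23 CPM, which overlap, while the wild-type mean went from 84.3 to 594 CPM (difference -6.16, SE 1.12, adjusted p = 0.0028, and -4.80 without replicate 1, adjusted p = 0.0083). It was the 1 called difference among 42 seed storage genes tested, whose median difference was 2.03. OsTIP3 (Os10g0492600), a tonoplast aquaporin of the seed type, had means of 1.70 and 0.140 CPM in the line and 19.8 and 78.9 CPM in wild-type (difference -5.53, SE 1.31, adjusted p = 0.014, and 0.051 without replicate 1). Of 34 aquaporin genes tested, 3 had a more negative difference, and the median difference was -0.04.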

How the data were processed

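RNA was measured in 24 libraries of scutella, 3 in each of 8 groups given by the labels (wild-type or 35Spro:OsMIR393b, N6 medium or CIM, and time). Per the labels, mRNA libraries were sequenced, and the submitters' processing notes name Trimmomatic 0.36, HISAT2 2.1.0, StringTie 1.3.4d and the build IRGSP-1.0. The authors deposited estimated counts and FPKM per gene for each library. The estimated counts come in steps of about 4 per read fragment, so intervals on the counts as deposited would be too narrow, and the floor was set at 12 counts, or 3 fragments, per library. The strand setting of the counting is not given in the sources used here. The deposited counts were rounded to whole numbers. Library totals of the 6 libraries compared lay between 66692530 and 70796624 counts, and floors cover counting error only.

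Counts were tested with edgeR 4.0.16 (R 4.3.3) after filterByExpr by group and TMM scaling, in 1 quasi-likelihood fit of 8 group means with 16 residual degrees of freedom. The comparison was 7 d minus 5 d in the line, the same in wild-type, and the difference between these changes. Calls required a p below 0.05 after Benjamini-Hochberg adjustment and a log2 fold change beyond 1 in either direction. SE is the absolute log2 fold change divided by the square root of the F statistic. Alternatives used limma 3.58.1 on log2(FPKM + 1), DESeq2 1.42.0, other scalings and filters, and omitted libraries. Tables and figures were made with Python 3.11.15, NumPy 2.4.6, pandas 2.3.3 and Matplotlib 3.10.9, and the fit was tested on simulated data.

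The members and lists were chosen with earlier results of these data known, and list patterns were edited after gene names were read. Genes were named by rule: 30 genes of the study, the 12 highest and 12 lowest fold changes and the 10 most abundant genes among those called with and without replicate 1 of the line at 5 d, not overlapping, with at least 10 CPM in the higher group, the 4 members with the smallest p in each list, and the 5 highest and 5 lowest called differences with at least 10 CPM. Exceptions are stated in the text.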

Additional observations from a re-analysis of the deposited data

Results flagged for a closer look

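The change from 5 d to 7 d differed between the line and wild-type for 992 genes in the negative and 265 in the positive direction, by the edgeR test of the difference of the 2 changes. The values below are fitted differences on the log2 scale, line minus wild-type, for the named genes in which it was called. For OsPME25, Os0053 and RLCK204, at 0 in all 7 d libraries of the line, the fitted value depends on the prior count and is no bound. The 7 d libraries of OsLFL1 and OsWOX2 in the line all lay under the floor of 12 counts, so the sizes of their differences were not measurable. Without replicate 1 of the line at 5 d, 36 of these 52 differences were called. The 16 that were not are those of CAL1, OsTDL1B, Os09g0482300, Os09g0482550, HAP3K, DWT1, OsWOX2, prx89, OsEXPB4, Os04g0418800, Os06g0676700, LHCB, Os05g0130600, SWEET13, OsCYCP4 and OsTIP3. Among lipid transfer, wax and fatty acid genes, OsLTP1.15 by -5.47, OsGL1-2 by -4.12, OsGL1-3 by -3.83, Os03g0162650 by -5.01 and Os03g0162800 by -4.05 differed. In the same group ONI1 by -2.98 and Os0053 by -12.42 differed. Among embryo, seed and homeobox genes, OLE18 by -4.63, OLE16 by -4.17, Os09g0482300 by -2.99, Os09g0482550 by -2.97 and OsVP1 by -2.42 differed. In the same group OsLFL1 by -5.18, HAP3K by -2.60, DWT1 by -3.41, OsWOX2 by -6.53 and OsEnS-51 by -6.16 differed. In the same group OsTIP3 by -5.53 differed. Among cell wall genes, prx89 by -1.46, prx109 by -2.07, prx27 by -1.61, OsEXPB6 by -1.29 and OsEXPB4 by -1.19 differed. In the same group OsXTH10 by -2.32, Os04g0418800 by -1.19, OsPME25 by -10.15 and OSCIN1 by -1.78 differed. Of the other genes, CAL1 by -4.23, OsTDL1B by -4.75, Os01g0201600 by -5.76 and Os03g0197300 by -4.51 differed. There followed Os07g0440100 by -4.57, OsARF9 by -1.58, RPA2C by -2.56 and Os06g0676700 by -1.22. Next came OsABCG12 by -2.53, OsGELP85 by -1.71, LHCB by -5.27, OsBEIIa by -1.38, OsSSIIb by -1.23 and RLCK204 by -9.40. More positive in the line were Oc2* by 2.42, OsGSTU42 by 2.19, Os05g0130600 by 2.46, Os05g0130500 by 3.06, Os12g0508400 by 2.44 and Os07g0605400 by 1.55. So were Os02g0734600 by 1.71, OsCKX11 by 1.14, SWEET13 by 6.15, OsCYCP4 by 3.01 and Os05g0130200 by 2.71.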

How the results depend on the processing

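Of the 85 genes described above, none reversed its direction in the alternative runs in which it was tested. Some genes of the study that are not described above did change sign without replicate 1 of the line at 5 d. OsPLT2, for example, went from a log2 fold change of -0.98 to 0.41, and was called in neither fit. The number of genes that rose, 310, ranged from 116 to 484 when single libraries were left out, and the 1793 that fell from 657 to 2427. More positive differences from wild-type, 265, ranged from 119 to 501, and the 992 more negative from 592 to 1687. Counts are given below in the order higher, lower, more positive and more negative, where they moved by over 1.5 times. With only the groups compared they were 12, 74, 148 and 455, and without replicate 1 of the line at 5 d in that fit 14, 48, 106 and 385. Leaving out replicate 1 of the line at both times, chosen after seeing the data, gave 57, 440, 71 and 466. An unadjusted p under 0.05 gave 563, 2811, 773 and 2446, and no minimum fold 2179, 3317, 1124 and 1518. With library totals 175 rose and 152 differences were more positive, and leaving out replicate 1 at 5 d as well gave 88 higher, 735 lower and 78 more positive. With limma 182 rose, 862 fell and 174 differences were more positive, and with DESeq2 479 were more positive and 1507 more negative. RLE factors, no filter and counts divided by 4 kept all 4 counts within 1.5 times. The replicate numbers gave no sign of a pairing. The deviations of same-numbered libraries at 5 d and 7 d from their group means had correlations of -0.242, -0.102 and -0.063. With 3 libraries per group these values cannot show that there was no pairing. The levels themselves were highly correlated (0.885, 0.941 and 0.952). A fit with a replicate block gave 302 higher, 1549 lower, 264 more positive and 835 more negative. Of 74 called genes named in the text, 59 lost the call with only the groups compared and 13 without replicate 1 of the line at 5 d.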

Other observations

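A list of 35 cuticle and wax genes was put together after the lowest genes had been seen, so it supports nothing and is given as counts. Of 30 tested, 14 fell from 5 d to 7 d in the line and none rose, with a median log2 fold change of -0.93, and 8 fell without replicate 1 at 5 d. Their summed level was 843, 457 and 445 CPM at 5 d and 350, 309 and 355 CPM at 7 d.

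Genes with no known function rose close together on chromosome 5. Os05g0130200, a conserved hypothetical protein, was at 5.11, 11.8 and 14.0 CPM at 5 d and 37.8, 27.0 and 28.3 CPM at 7 d in the line (log2 fold change 1.59, edgeR adjusted p = 0.017, and 0.094 without replicate 1), near Os05g0130500 and Os05g0130600. Its wild-type means were 0.648 and 0.30 CPM.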
